A study of Homo sapiens with 15 samples.

Results

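The genes of RNA polymerase II, the general transcription factors and Mediator were examined for DNA G-quadruplex (G4) signal at their promoters in K562 cells. The members were the protein-coding genes with symbols of the POLR2A to POLR2L, GTF2A, GTF2E, GTF2F, GTF2H, TBP, TAF1 to TAF13 and MED families. They numbered 69 of 19785 protein-coding genes, with 12 polymerase subunits, 27 general factors and 30 Mediator subunits. Chromatin of the established human leukaemia line K562, from asynchronous cultures, had been precipitated with BG4, an antibody that recognises G4 structures, and sequenced in 5 libraries. Libraries 1a and 1c were technical libraries of biological replicate 1, and 2a, 2b and 2c were those of biological replicate 2. Each library had its own list of peaks, the libraries together had 1 list of high-confidence regions, and there was no second condition to compare. The lists of 1a and 1c held 12495 and 10079 peaks and those of 2a, 2b and 2c held 8059, 9026 and 11111, and the number of reads behind them is unknown. Peak names in lists 2a and 2c carry each other's letter, so a value given for either library may belong to the other. No expression value was analysed, so the identity of the cells was not checked against markers.

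A G4 is a multi-stranded stack of guanine tetrads that forms in DNA with closely spaced runs of guanine, and BG4 signal in human chromatin is known to gather at GC-rich, nucleosome-poor promoters. Polymerase II is placed at a start site by the general factors: TFIID, built from TBP and its associated factors (TAFs), binds the promoter, TFIIA steadies it, TFIIF escorts the polymerase, and TFIIE and TFIIH open the DNA. Mediator is the large complex that links activators on enhancers to this assembly. Most of these genes are expressed in all dividing cells.

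A promoter was taken here as the sequence within 1 kb of an annotated start site, and a high-confidence region as a stretch that peaks of at least 3 of the 5 lists covered. The sequences printed here are the parts of such regions outside annotated UTRs, shown to let regions with and without a motif be compared in each class. They were taken in order of signal among the members whose regions could be printed. They include the first in that order for the polymerase (POLR2I) and Mediator (MED26), but not for the general factors (GTF2H3). They are on hg19 (GRCh37), read 5′ to 3′ along the strand of the gene. Capitals mark a G4 motif, defined as 4 runs of at least 3 G that stand 1 to 7 bases apart. A C-rich motif is a G4 motif on the template strand.

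The stalk subunits POLR2G and POLR2D had regions with a motif, on the coding strand at chr11:62528856-62529036 (plus strand) and on the template strand at chr2:128615730-128615935 (minus strand). The region of POLR2I at chr19:36606090-36606340 (minus strand) had no motif.

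POLR2G: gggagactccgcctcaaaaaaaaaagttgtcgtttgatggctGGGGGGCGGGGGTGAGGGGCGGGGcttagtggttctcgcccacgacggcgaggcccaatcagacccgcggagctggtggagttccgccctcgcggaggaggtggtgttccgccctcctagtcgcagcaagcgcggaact
POLR2D: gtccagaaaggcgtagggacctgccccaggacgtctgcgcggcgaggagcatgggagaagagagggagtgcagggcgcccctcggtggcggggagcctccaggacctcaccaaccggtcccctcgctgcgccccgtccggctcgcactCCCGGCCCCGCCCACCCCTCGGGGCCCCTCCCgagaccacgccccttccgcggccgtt
POLR2I: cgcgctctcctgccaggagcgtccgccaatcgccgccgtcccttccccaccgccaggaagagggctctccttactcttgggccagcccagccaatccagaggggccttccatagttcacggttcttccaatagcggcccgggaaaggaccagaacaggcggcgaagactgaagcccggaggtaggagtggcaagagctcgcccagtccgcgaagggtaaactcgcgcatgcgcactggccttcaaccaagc

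TAF4, a TFIID subunit, had a template-strand motif that ran up to the start site, where the printed part ends, at chr20:60640938-60641113 (minus strand), whereas the part of the TBP region at chr6:170863279-170863389 (plus strand) had no motif.

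TAF4: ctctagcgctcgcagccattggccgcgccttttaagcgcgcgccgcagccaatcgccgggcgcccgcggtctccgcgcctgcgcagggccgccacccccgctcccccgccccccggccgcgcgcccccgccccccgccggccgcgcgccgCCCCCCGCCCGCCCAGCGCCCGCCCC
TBP: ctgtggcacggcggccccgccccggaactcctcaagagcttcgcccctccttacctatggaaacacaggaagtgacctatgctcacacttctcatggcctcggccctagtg

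In Mediator, MED26 had a coding-strand motif at chr19:16739036-16739335, while MED10 at chr5:6378661-6378817 and MED13L at chr12:116715499-116715644 had template-strand motifs (all on the minus strand). The region upstream of the backbone subunit MED14 at chrX:40595033-40595198 (minus strand) had none.

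MED26: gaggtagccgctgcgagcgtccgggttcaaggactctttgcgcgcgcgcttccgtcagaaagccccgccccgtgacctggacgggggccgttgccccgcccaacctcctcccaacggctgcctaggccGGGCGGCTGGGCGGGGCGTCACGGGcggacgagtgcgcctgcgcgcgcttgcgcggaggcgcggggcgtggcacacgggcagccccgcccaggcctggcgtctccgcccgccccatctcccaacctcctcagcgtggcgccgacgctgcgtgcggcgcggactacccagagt
MED10: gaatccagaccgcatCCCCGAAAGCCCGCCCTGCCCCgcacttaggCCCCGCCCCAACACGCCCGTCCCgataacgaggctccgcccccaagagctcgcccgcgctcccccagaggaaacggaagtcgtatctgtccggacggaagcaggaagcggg
MED13L: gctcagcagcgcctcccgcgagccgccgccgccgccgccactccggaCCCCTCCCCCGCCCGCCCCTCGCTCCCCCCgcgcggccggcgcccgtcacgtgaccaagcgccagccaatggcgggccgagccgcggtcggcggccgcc
MED14: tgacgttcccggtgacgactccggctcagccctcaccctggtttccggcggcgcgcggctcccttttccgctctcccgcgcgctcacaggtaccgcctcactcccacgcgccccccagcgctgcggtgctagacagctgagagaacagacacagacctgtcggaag

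A high-confidence region lay at the promoters of 32 of the 69 members, or 46.4% (95% Wilson interval 35.1 to 58.0), against 34.3% of all protein-coding genes. By class, these were 15 of 27 general factors (55.6%, 37.3 to 72.4), 6 of 12 polymerase subunits (50.0%, 25.4 to 74.6) and 11 of 30 Mediator subunits (36.7%, 21.9 to 54.5). The interval of the general factors lay above the share of all genes, and those of the polymerase and of Mediator held it. That separation of the general factors was lost under other settings. Their interval held the share of genes among genes with a strict CpG island, for regions with peaks in all 5 libraries (29.6%, 15.9 to 48.5) and for regions of peaks of −log10 p of at least 10 (22.2%, 10.6 to 40.8). It also did so without library 1a (40.7%, 24.5 to 59.3, against 30.5%), 1c (48.1%, 30.7 to 66.0, against 32.0%), 2b (44.4%, 27.6 to 62.7, against 31.1%) or 2c (10 of 27, 21.5% to 55.8%, against 29.8%). With 1 library left out, a region still had to be covered by 3 lists, so the rule was also stricter there. The intervals of the 3 classes overlapped. All intervals given here cover counting error only, and the genes are not replicates of a condition.

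Of the definitions compared here, a peak in any library set the members furthest from all genes. A peak in 1 library or more was found at 48 of 69 members (69.6%, 57.9 to 79.2), against 47.0% of all genes. A peak in all 5 libraries was found at 20 of 69 (29.0%, 19.6 to 40.6), against 22.6% of all genes. Those 20 were 5 polymerase subunits, 8 general factors and 7 Mediator subunits. Each of them also had a region that peaks of all 5 libraries overlapped, against 21.8% of all genes. With regions rebuilt from peaks of −log10 p of at least 10, a region remained at 17 of 69 members (24.6%), against 24.4% of all genes. That left 53.1% of the members that had a region, against 71.1% of the genes that had one. By class, the region remained at 4 of 6 polymerase subunits, 7 of 11 Mediator subunits and 6 of 15 general factors.

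**Figure D1:**
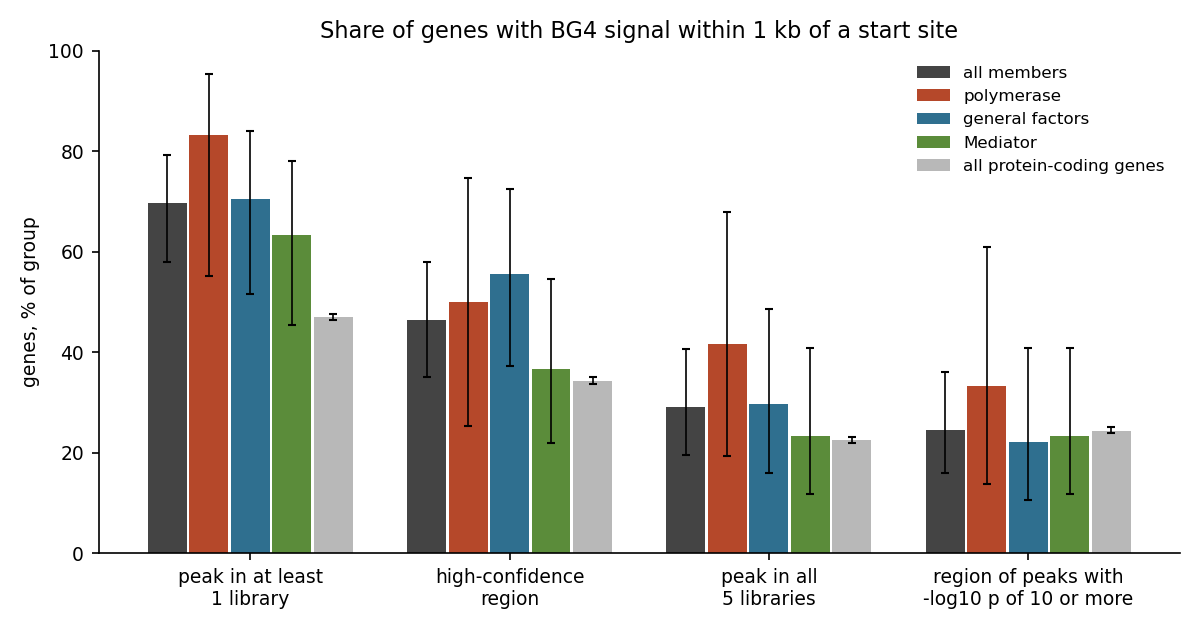
Share of genes (%) with BG4 signal within 1 kb of a start site under 4 definitions, for all members, the 3 classes and all protein-coding genes. Bars are shares and whiskers 95% Wilson intervals. The share of members lay above that of all genes for a peak in any library (69.6% against 47.0%) and beside it for regions of stronger peaks (24.6% against 24.4%).

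The polymerase subunits differed within the enzyme. Of the 7 subunits found only in polymerase II, 4 had a region. They were POLR2A, the catalytic subunit with the heptad-repeat tail, POLR2D and POLR2G, which form the stalk, and POLR2I, which takes part in transcript cleavage, and each had a peak in all 5 libraries. POLR2B, the subunit that forms the active site with POLR2A, had a peak in library 1a alone. The assembly pair POLR2C and POLR2J had no region, with no peak in any library at POLR2C and 1 in library 1a at POLR2J. Of the 5 subunits shared with polymerases I and III, 2 had a region. POLR2H had peaks in all 5 libraries, and POLR2E in 3 (not in 1c or 2a). POLR2F had peaks in 1c and 2b, POLR2L in 2b alone and POLR2K in none. POLR2J has near-identical copies, and peaks there depend on how the authors' mapping placed reads that fit several copies, which is not given in the sources used here.

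Among the general factors, TFIID held 8 of its 14 genes with a region. TAF4 and TAF12, which pair through histone folds, both had a peak in all 5 libraries. In other pairs of this kind the partners differed: TAF9 had a peak in all 5 libraries and TAF6 in none, and TAF13 had a peak in 3 (not in 2a or 2b) and TAF11 in none. TAF10 had peaks in 4 libraries (not in 2a), and its partners TAF3 in 3 (not in 1c or 2a) and TAF8 in 2 (2b and 2c). TBP, the subunit that binds the TATA element, had a peak in all 5, and the scaffold subunit TAF5 in 3 (not in 1c or 2a). The largest subunit TAF1 had a peak in 1a alone, and TAF2 and TAF7 had none.

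TFIIH had 4 of 6 core genes with a region: GTF2H1, GTF2H3 and GTF2H5 with peaks in all 5 libraries, and GTF2H4 with peaks in 3 (not in 1a or 2a). GTF2H2 and GTF2H2C had no peak. They are near-identical copies on chromosome 5, and how reads that fit both were mapped is not given in the sources used here. TFIIA had 2 of 3, GTF2A1 in 3 libraries (not in 1c or 2b) and GTF2A2 in 4 (not in 1c), while the germline form GTF2A1L had no peak. Of the TFIIE pair, GTF2E2 had peaks in all 5 libraries and GTF2E1 in 2b alone. Neither TFIIF gene had a region, with peaks in 1a and 1c at GTF2F1 and in no library at GTF2F2.

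No peak in any library was found at 11 of 30 Mediator genes (36.7%, 21.9 to 54.5), against 53.0% of all genes. The head module of Mediator, the part that touches the polymerase, held 5 of these 11. Of its 7 genes 2 had a region, MED8 in 3 libraries (not in 2b or 2c) and MED11 in 4 (not in 1c), and MED6, MED17, MED18, MED20 and MED22 were the 5 with no peak. In the middle module 4 of 9 had a region: MED10 and MED26 in all 5 libraries, MED31 in 4 (not in 2b) and MED19 in 3 (not in 1c or 2a). The backbone subunit MED14 had a peak in all 5 libraries. In the tail, which meets activators, 1 of 5 had a region, MED15. Of MED27 to MED30, MED29 alone had a region. In the kinase module MED13 and its paralogue MED13L had peaks in all 5 libraries, and MED12 and its paralogue MED12L had none. These groups hold 1 to 14 genes each, and differences between them were not tested.

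The other Mediator genes had few peaks. MED21 had peaks in 1a and 1c, MED28 in 1a and 2c, and MED30 in 2b and 2c. MED25 had a peak in 1a alone, MED7 in 1c, MED1 and MED24 in 2b, and MED9 in 2c. MED4, MED16, MED23 and MED27 had none. Of the 48 members with a peak in 1 library or more, 34 had peaks in both replicates (70.8%, 56.8 to 81.8), against 78.7% of all genes with a peak. Peaks in replicate 1 only were found at 7 (14.6%, against 8.42%) and in replicate 2 only at 7 (14.6%, against 12.9%). The intervals of these shares held those of all genes.

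**Figure D2:**
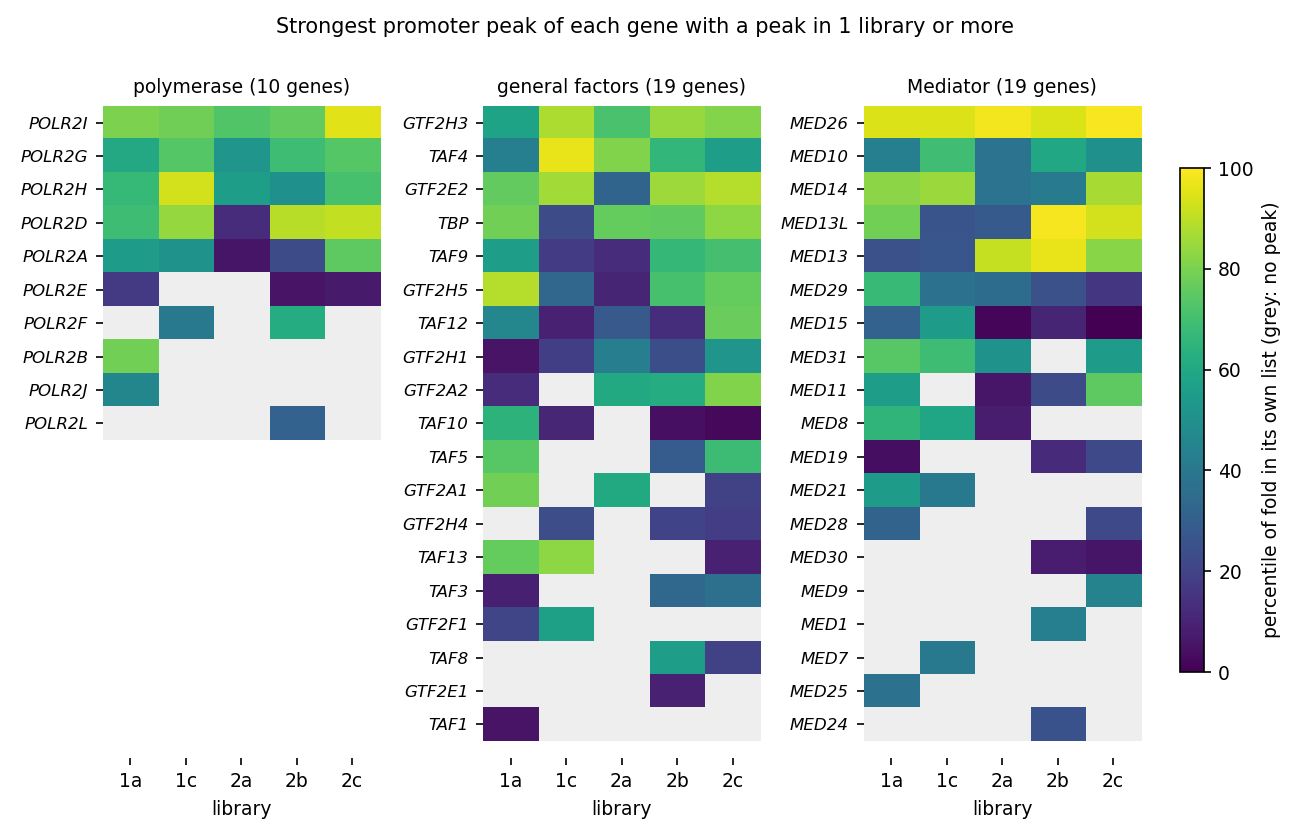
Percentile of fold enrichment within its own list (colour) of the strongest promoter peak, for each member with a peak in 1 library or more (rows, by class) in each library (columns); grey means no peak. MED26 is high in every library (94.3 to 99.0), and 20 of the 48 members shown have a peak in every column.

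The count of members with a promoter peak was 38 and 29 in libraries 1a and 1c, and 25, 35 and 35 in libraries 2a, 2b and 2c. These were 55.1%, 42.0%, 36.2%, 50.7% and 50.7% of the members, against 37.9%, 32.1%, 31.4%, 34.9% and 38.5% of all genes, in that order of libraries. The share of members was the higher in 5 of 5 libraries, by 17.2 and 9.97 percentage points in 1a and 1c, and by 4.79, 15.8 and 12.2 points in 2a, 2b and 2c. Averaged within and then over the biological replicates, it was 47.2% ± 1.88 (SD, n = 2), against 35.0% ± 0.00834 of all genes.

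By class, the mean share was 55.6% ± 3.93 for the polymerase, 51.2% ± 0.873 for the general factors and 40.3% ± 1.96 for Mediator (SD, n = 2). Polymerase exceeded Mediator in 5 of 5 libraries, by 15.3 ± 1.96 points, and the general factors exceeded Mediator in 5 of 5, by 11.0 ± 1.09 points. Both differences were larger than the spread between replicates, which measures the libraries and not the small number of genes. Polymerase exceeded the general factors in 4 of 5 libraries and not in 2c, where the difference was -9.26 points (mean difference 4.32 ± 3.06 points). Mediator lay above all genes by 1.89 points in 2a to 8.77 in 1a.

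Peak strength was read from the fold enrichment at the summit, as the authors' peak caller gave it, and from its percentile within the same list, where 100 is the strongest peak. The lists differ in length, so percentiles describe a place in a list and show no change between libraries. Described in full are the members with a peak in all 5 libraries that had the highest lowest percentile in their class.

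Among the polymerase genes, POLR2I, at chr19:36606090-36606457, had folds of 9.37 and 8.48 in libraries 1a and 1c and 8.15, 7.78 and 10.77 in 2a, 2b and 2c (percentiles 72.9 to 95.7). The stalk gene POLR2G, at chr11:62528856-62529071, had 7.52, 8.07, 6.86, 7.27 and 7.41 in the same order (52.2 to 73.6), the narrowest spread of fold among the 4 polymerase genes described. The fold of POLR2I was above that of POLR2G in all 5 libraries. The shared subunit POLR2H, at chr3:184080905-184081213, had 8.02, 10.98, 7.04, 6.25 and 7.22 (50.3 to 93.3). The other stalk gene, POLR2D, at chr2:128615713-128615935, had 8.17, 9.20, 4.94, 9.06 and 9.52 (12.8 to 91.0). POLR2D was thus low in 2a and between 8.17 and 9.52 in the other 4 libraries. POLR2A lay outside the rule for full description and had folds of 4.33 to 7.56 (percentiles 5.5 to 75.3).

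Of the general factors, the TFIIH gene GTF2H3, at chr12:124118180-124118421, had folds of 7.31 and 9.73 in libraries 1a and 1c and 7.90, 8.57 and 8.13 in 2a, 2b and 2c (58.2 to 87.5). TAF4, at chr20:60640867-60641113, had 6.46, 12.42, 8.88, 7.03 and 6.31 (43.3 to 96.7), with its highest value in 1c. GTF2E2, at chr8:30515525-30515946, had 8.92, 9.47, 5.91, 8.59 and 9.09 (32.2 to 88.8). Its value in 2a was the low one, as at POLR2D. TBP, at chr6:170863279-170863459, had 9.20, 5.34, 8.40, 7.76 and 8.30 (22.8 to 82.9), low in 1c. TAF9, at chr5:68665583-68665727, had 7.09, 5.03, 4.94, 7.06 and 7.17 (12.8 to 70.5). Its strongest promoter peak in 2b lay outside the region, where the fold was 5.86. The TFIIH gene GTF2H5, at chr6:158589227-158589535, had 11.02, 5.78, 4.77, 7.36 and 7.65 (10.2 to 89.0), so that TAF9 and GTF2H5 were both low in 1c and 2a.

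In Mediator, MED26, which joins Mediator to elongation factors, had folds of 12.84 and 11.44 in libraries 1a and 1c and 13.27, 10.15 and 12.92 in 2a, 2b and 2c (94.3 to 99.0) at chr19:16739003-16739335. Its lowest percentile ranked 69 among the 4467 genes with a peak in all 5 libraries and was the highest of the members, the next being that of POLR2I with rank 694. MED10, at chr5:6378619-6378817, had 6.45, 7.67, 6.18, 6.66 and 6.07 (38.1 to 69.5). MED14, at chrX:40595033-40595198, had 9.73, 9.21, 6.18, 5.84 and 8.83 (38.0 to 87.0). MED14 was thus low in 2a and 2b and high in the other 3 libraries. MED13L, at chr12:116715459-116715644, had 9.19, 5.42, 5.79, 12.22 and 10.00 (25.8 to 98.8), the widest range of the 4. The folds of MED26 exceeded those of MED10 and MED14 in every library, and those of MED13L in every library except 2b.

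At the other end, MED15 had folds of 5.84, 6.80, 3.91, 4.40 and 2.63 at its region at chr22:20861751-20861934, and its lowest percentile, 0.2, ranked 4467 of 4467. MED15 is named here after its values were seen. The start sites used were those of the basic set of protein-coding transcripts. At a start of MED15 outside that set, a region at chr22:20850050-20850376 had folds of 10.93, 8.28, 6.85, 7.45 and 5.74 (percentiles 43.7 to 88.7). A further region there, at chr22:20849783-20849892, had peaks in 3 libraries, with folds of 5.26 in 1a, 3.17 in 2b and 2.54 in 2c (percentiles 0.1 to 18.8).

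As a group, the members with peaks had weaker ones than all genes with peaks in 4 of 5 libraries, by the median. The median percentile of their strongest promoter peak was 57.1 and 54.9 in 1a and 1c and 38.1, 43.1 and 68.7 in 2a, 2b and 2c, against 65.3, 64.4, 57.7, 58.9 and 60.7 for all genes with a peak there. Library 2c was the exception. Mediator had the lowest class median in 1a (55.4), 2a (36.6), 2b (33.1) and 2c (50.3), and the general factors had it in 1c (28.4). Among members with a peak in all 5 libraries, 5 of 20 stayed at the 50th percentile or above in every list (25.0%), against 39.5% of all such genes. A peak of −log10 p of at least 10 in all 5 libraries was found at 7 of 69 members (10.1%), against 12.4% of all genes. These were POLR2G, POLR2H, POLR2I, TBP, GTF2H3, MED10 and MED26.

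**Figure D3:**
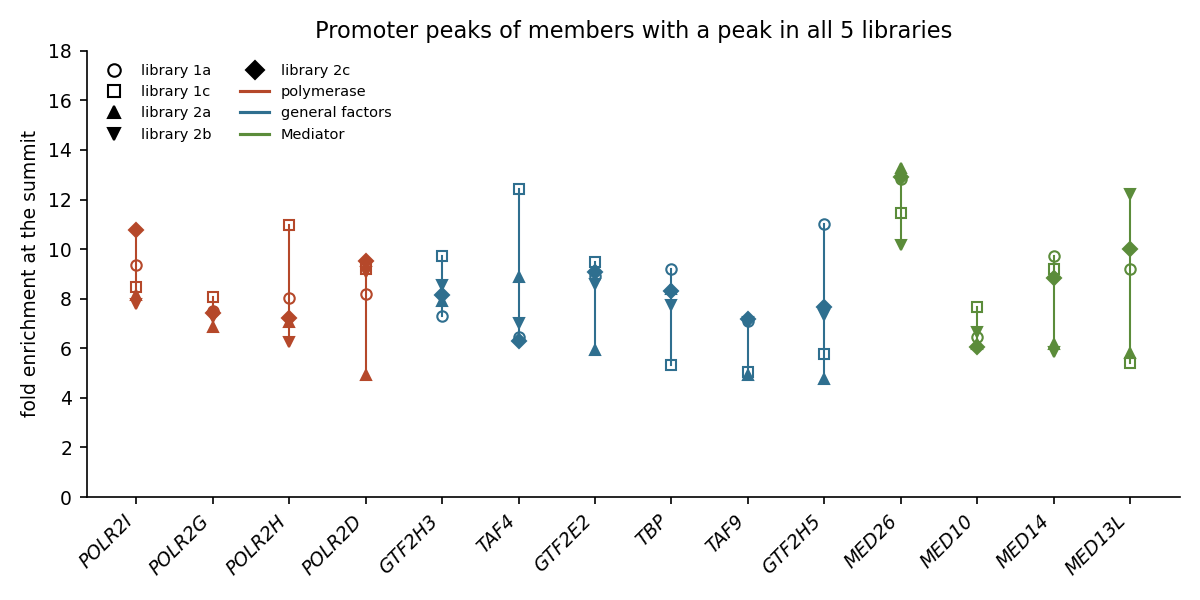
Fold enrichment at the summit of the strongest promoter peak in each of the 5 libraries (points; open for replicate 1, filled for replicate 2) for 14 members, coloured by class. Vertical lines join the lowest and highest library; MED26 lies between 10.15 and 13.27 and has the highest lowest value.

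The member promoters were nearly all CpG islands, CpG-rich stretches found at most broadly expressed genes. A strict island (500 bp windows, GC share of at least 0.55, observed over expected CpG of at least 0.65) lay within 1 kb at 67 of 69 members (97.1%), against 74.8% of all genes. POLR2K and MED24 were the exceptions, and 0 of these 2 had a region, against 2.51% of all genes without a strict island. Among genes with a strict island, a region lay at 32 of 67 members (47.8%), against 45.1% of genes. The difference between members and all genes was thus 12 points overall and 2.69 points among genes with a strict island. Overall it was 5.75 points without library 1a and 6.45 without 2c, where 3 of the remaining lists still had to cover a region. By class, the shares among genes with a strict island were 6 of 11 polymerase subunits (54.5%), 15 of 27 general factors (55.6%) and 11 of 29 Mediator subunits (37.9%).

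A G4 motif lay within 1 kb of a start site at 43 of 69 members (62.3%, 50.5 to 72.8), against 71.7% of all genes, a share inside the interval. Polymerase subunits had one at 10 of 12, general factors at 17 of 27 and Mediator subunits at 16 of 30. Among genes with a motif, a region lay at 25 of 43 members (58.1%), against 40.4% of genes. Among genes without a motif, a region lay at 7 of 26 members (26.9%, 13.7 to 46.1), against 19.0% of genes. The 7 were TBP, TAF13, GTF2H3, GTF2H4, MED8, MED11 and MED19. Of the 43 members with both a strict island and a motif, 10 had no peak in any library (23.3%, 13.2 to 37.7), against 38.4% of all genes with both. The 10 were POLR2C, TAF2, TAF6, GTF2F2, MED4, MED6, MED12, MED12L, MED16 and MED22. GC content within 1 kb was higher at members with a region (median 55.9%) than at those without (51.7%), and over all genes the medians were 59.0% with a region and 53.9% without.

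The regions themselves were somewhat narrower. The 33 member regions, of which POLR2H had 2, had a median width of 186.0 bp and a median GC content of 68.6%, against 215.0 bp and 71.1% for all 6695 promoter regions. A motif lay inside 9 of 33 (27.3%), against 37.3% of all promoter regions. Mediator had 5 of 11, the polymerase 2 of 7 and the general factors 2 of 15. The general factors thus had the lowest share of regions with a motif among the 3 classes, on small counts. They also had the highest share of promoters with a region, but not by every rule. For regions with peaks in all 5 libraries the polymerase had the highest share (41.7%, against 29.6% of general factors). For regions of peaks of −log10 p of at least 10, the general factors were lowest (22.2%). The polymerase had 33.3% there and Mediator 23.3%. The motif was on the coding strand at POLR2G and MED26, and on the template strand at POLR2D, TAF4, GTF2E2, MED10, MED13, MED13L and MED31. Counted by gene, 9 of the 32 members with a region had a motif in it (28.1%, 15.6 to 45.4), against 39.3% of all genes with a region. With runs of 2 or more G the counts were 29 of 32 members (90.6%, 75.8 to 96.8) and 6455 of 6795 genes. In both counts the interval of the members held the share of all genes. A match to a motif describes the letters and does not show that the DNA folded.

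Most regions lay at the start site. A region covered it at 19 of 32 members (59.4%), against 68.6% of all genes with a region, and the middle lay within 250 bp at 26 of 32 (81.2%), against 88.0%. The median position of the middle relative to the start was -53 bp (upstream), against -72 bp for all genes. It was downstream at 7 of 32 members (21.9%), against 14.2% of genes. The furthest were MED13 at -765 bp, upstream of the gene, and TAF5 at 673 bp, inside an intron, and both were lost when 500 bp was the limit. The regions of POLR2A (478 bp downstream), TAF9 (185 bp), MED11 (329 bp) and MED19 (230 bp) lay in exons. Those of POLR2I (-496 bp) and MED14 (-322 bp) lay upstream of the basic transcripts and only in part within the annotated span of the gene. On the minus strand, that span begins inside the region, at 36606115 for POLR2I and at 40595110 for MED14.

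**Figure D4:**
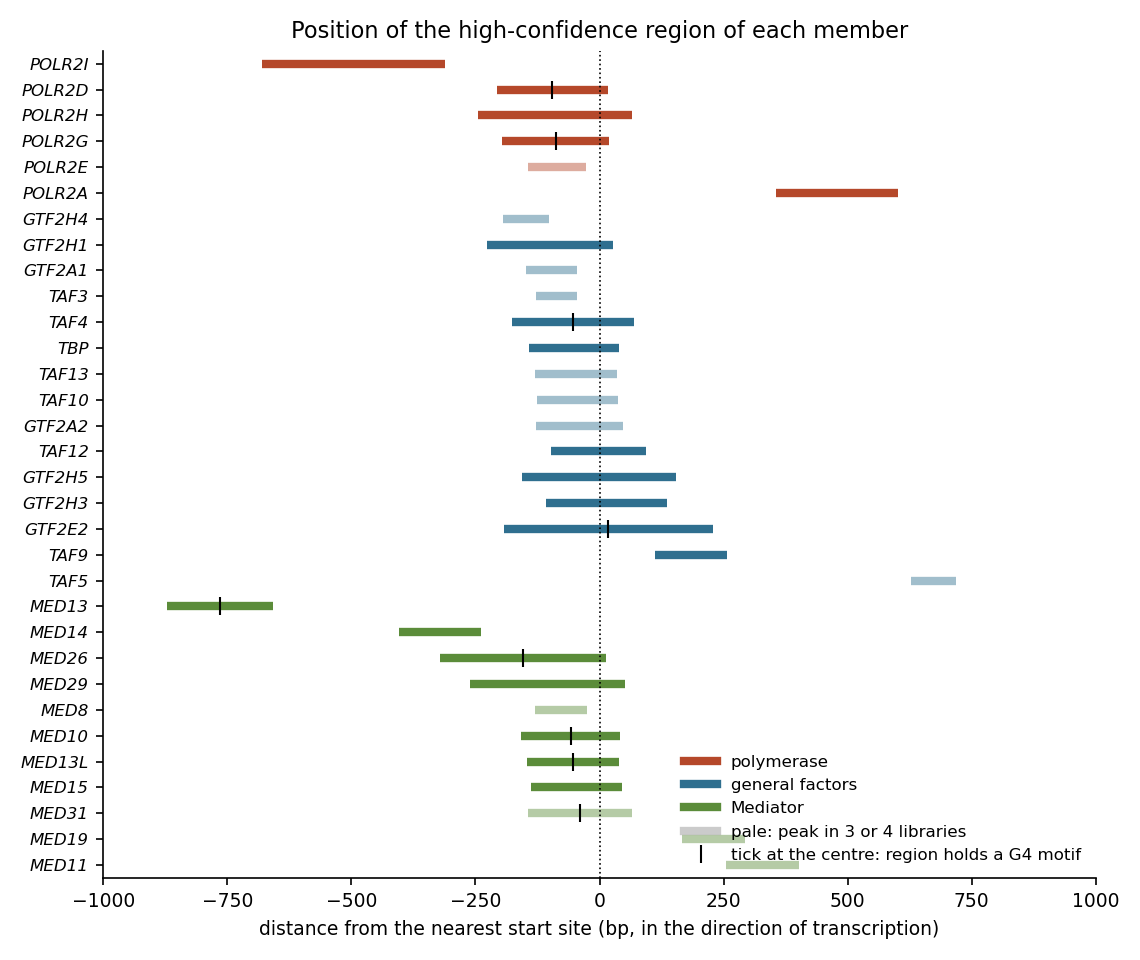
Position of the high-confidence region of each of the 32 members (bars, to scale) relative to the nearest start site, in bp in the direction of transcription. Pale bars had a peak in 3 or 4 libraries and a tick at the centre marks a region with a G4 motif; 19 of the 32 bars cross 0.

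Many members share a promoter with a gene read in the other direction, and there a region cannot be given to either gene. An opposite-strand start site lay within 1 kb at 20 of 69 members (29.0%, 19.6 to 40.6), against 13.7% of all genes. It did so at 6 of 12 polymerase subunits, 7 of 27 general factors and 7 of 30 Mediator subunits. Among genes with such a neighbour, a region lay at 11 of 20 members (55.0%), against 60.3% of genes, and among genes without one at 21 of 49 (42.9%), against 30.2%. At each of the 11, the neighbour lay within 1 kb of the same region. The closest pairs were TAF9 with RAD17, 19 bp apart, and GTF2H3 with EIF2B1, 27 bp apart. POLR2A was paired with ZBTB4 at 103 bp, POLR2H with CLCN2 at 105 bp and MED29 with PAF1, an elongation factor gene, at 169 bp. POLR2I was paired with TBCB at 564 bp, so the strong signal described above for POLR2I cannot be given to it rather than to TBCB. POLR2H has 2 regions, and which of them CLCN2 shares is not given here. The region described above, with peaks in all 5 libraries, lay at a start at 184081149, inside the gene, which begins at 184079498. The other, at chr3:184079430-184079515, had peaks in 3 libraries. AK6 also has a start within 1 kb of that of TAF9, on the same strand. Signal at MED26, TAF4, POLR2D and POLR2G had no such neighbour.

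Other genes of the same machinery were set beside the members. A region lay at 34.3% of all protein-coding genes and at 45.1% of those with a strict island. Islands are not given here for these other lists. Of 27 genes for pausing and elongation, 20 had a region (74.1%, 55.3 to 86.8). A peak in all 5 libraries was found at 16 of the 27, against 22.6% of all genes. They included SUPT4H1 and SUPT5H, which form DSIF, and NELFCD and NELFE of the NELF complex, CDK9 and CCNT2 of P-TEFb, and PAF1, whose region is the one at MED29. SUPT6H, ELL3 and LEO1 had no peak. Polymerase III subunits had a region at 7 of 10 (70.0%, 39.7 to 89.2), and polymerase I subunits at 2 of 8 (25.0%, 7.15 to 59.1), POLR1D and POLR1E. The interval of the elongation genes lay above the Mediator share, 36.7%, and the Mediator interval lay below 74.1%. The difference itself was not tested. The lists were chosen with earlier results of these data known, and both count the region that MED29 and PAF1 share.

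The TFIIH genes outside the symbol rule had a region at 3 of 5 (60.0%, 23.1 to 88.2), against 34.3% of all genes. These were the helicase genes ERCC2 and ERCC3 and CCNH, but not CDK7 or MNAT1. Of the partners of the Mediator kinase module, CDK19 had a region, and CDK8 and CCNC did not. Paralogues and factors outside the rule had one at 5 of 13 (38.5%), namely TBPL1, TAF4B, TAF5L, TAF6L and TAF15. GTF2B, which encodes TFIIB, had no peak in any library.

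**Figure D5:**
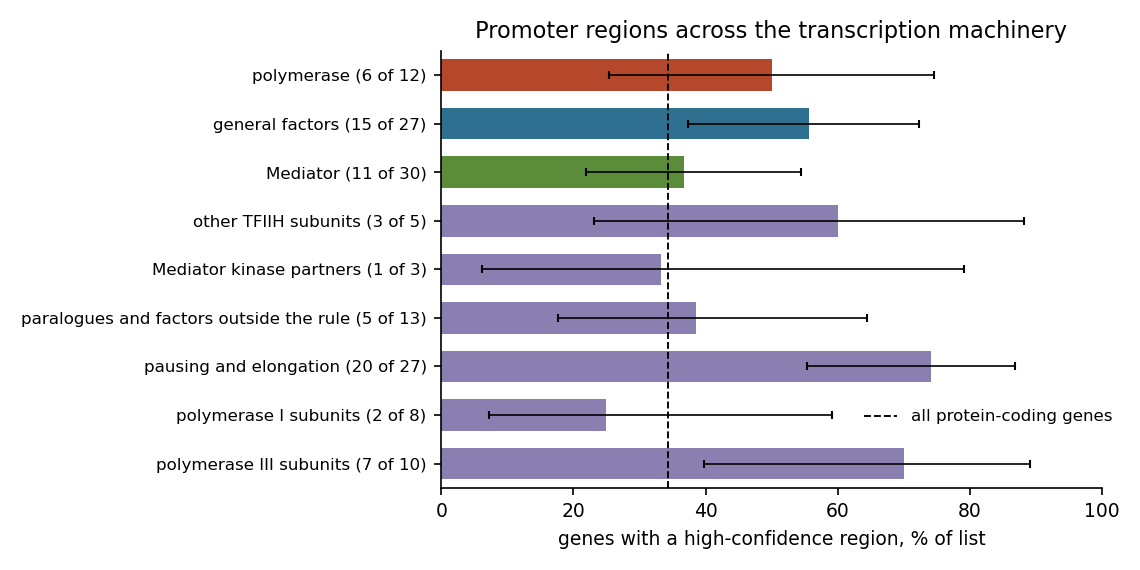
Share of genes (%) with a high-confidence region within 1 kb of a start site for the 3 classes of members and 6 other lists, with counts beside each name. Bars are shares, whiskers 95% Wilson intervals and the dashed line all protein-coding genes (34.3%); pausing and elongation genes reach 74.1% and polymerase I subunits 25.0%.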

How the data were processed

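BG4 ChIP of K562 cells gave 5 libraries from 2 biological replicates. The 2 K562 inputs and the 8 HaCaT bisulfite libraries were not analysed here. Per the submitters' processing notes, MACS2 called the peaks on hg19; the aligner, control, filters and settings are not given in the sources used here. The deposited peak lists give each peak a score, a fold enrichment (a ratio to the local background) and −log10 p and q values, all made by the authors and used here only within the list they belong to. The lowest −log10 p of each deposited list was 5.00 to 5.05. Lists were called per library. The deposited high-confidence list holds positions alone. Stretches that 3 or more of the 5 lists cover matched 8955 of its 8955 regions exactly. The 15 mitochondrial regions were left out and 8940 used. The number of reads is not given, so the depth is unknown.

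Start sites were those of basic protein-coding transcripts in GENCODE release 44 mapped to GRCh37. Strict islands, motifs and distances were computed from the GRCh37 sequence with Python 3.11.15 and NumPy 2.4.6, and Wilson intervals at 95% with SciPy 1.17.1. The counting step was tested on simulated data. Shares of technical libraries were averaged per biological replicate before the mean and SD, so n = 2. No test over the list was run: counts are given beside all protein-coding genes. Fold values were given for up to 4 members of a class (6 for the general factors) with a peak in all 5 libraries and the highest lowest percentile. Sequences were printed for up to 3 of these with a motif and 1 without per class, leaving out chromosome 8 and UTRs, so regions with under 40 bases outside UTRs were passed over. The members and lists were chosen with earlier results of these data known. The symbol GTF2B lacks the digit that the rule requires and was counted among the other lists. Alternatives changed the distance, start sites, regions, libraries, peak threshold, members, comparison genes and motif. POLR3I and POLR3J matched no gene.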

Additional observations from a re-analysis of the deposited data

Results flagged for a closer look

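Of 24 values compared over the 5 libraries, 3 had a single library far from the others. Chance would give about 1 in 20 for 5 independent, normally distributed values. These are percentiles of technical libraries from 2 biological replicates, so the chance rate for them is not known. The measure is the gap of the extreme library to its nearest neighbour over the whole range, in percentile of fold. It was 0.719 for POLR2D and 0.772 for GTF2E2, both low in 2a, with folds of 4.94 and 5.91. It was 0.877 for TBP, low in 1c with a fold of 5.34. List 2a is the shortest, with 8059 peaks, and the part of list length in these values was not tested.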

How the results depend on the processing

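Of 85 recomputed values 66 stayed close to the value reported (counts within 1.5 times it, the difference within the spread between replicates), 19 moved and 0 reversed. Most of these values are counts, which have no sign to reverse. Of the 17 recomputed values of the difference between members and all genes, 6 stayed close and 11 moved. The difference between members and all genes in the share with a region, 12 percentage points, was 9.96 within 500 bp, 7.14 for regions with peaks in all 5 libraries, 0.220 for regions of peaks of −log10 p of at least 10, and 7.67 for lists of equal length. It was 2.69 among genes with a strict island and 14.1 without paralogue and duplicated members. Leaving out 1 library gave 5.75 (without 1a) to 11.4 points (without 2a), with 25 to 30 members. It moved the most without 1a or 2c (6.45 without 2c). A region still had to be covered by 3 lists, so leaving out a library also made the rule stricter. The members lost were those with peaks in only 3 libraries, and none was gained. The part of the library and that of the stricter rule cannot be told apart. Regions of peaks in all 5 libraries left 20 members, 8 general factors and 7 Mediator subunits, and peaks of −log10 p of at least 10 left 17 members, 6 general factors and 7 Mediator subunits. Peaks of that strength in all 5 libraries were found at 7 members, not 20. A motif with runs of 2 or more G lay at 29 members with a region, not 9. All protein-coding transcripts and stretches within either replicate were added after seeing the data. The set of all transcripts kept all 32 members, and the stretches of replicate 1 gave a difference of 9.32 points. No paired analysis was possible because the libraries analysed form a single group. Peak lists without reads limit what the absence of a peak can show.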
